A study of Mus musculus with 14 samples.

Results

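The regions described here were sites of dimethylated histone H3 lysine 4 (H3K4me2) that were called in every condition of the series but never overlapped a called WDR5 peak. They were selected on measured peaks as H3K4me2 peaks of the DMSO list that lay on the 19 autosomes, were at least 500 bp and under 5000 bp wide, shared at least 1 bp with an H3K4me2 peak in each of the other 3 conditions, and shared no base with any of the 4 WDR5 lists. Of 105136 DMSO H3K4me2 peaks, 20030 met the rule, and these are called WDR5-free constant peaks.

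The series mapped MLL1, WDR5 and H3K4me2 by chromatin immunoprecipitation and sequencing (ChIP-seq) in cultures of mouse MLL-AF9 leukemia cells. MAF9 cells, which are mouse bone marrow cells transduced with MLL-AF9, were kept for 2 days in 20 µM MM-401 or in DMSO, the solvent. MAF9-transduced bone marrow cells with MLL1 flox/flox alleles and 1 copy of ER-cre, a Cre recombinase that becomes active when it binds 4-hydroxytamoxifen (4OHT), were treated with 400 nM 4OHT over 2 days or with ethanol (EtOH) alone. There was 1 library per condition and antibody, the 14 samples held 10 ChIP libraries and 4 inputs, and MLL1 was mapped under DMSO and MM-401 only. All cells carried the MLL-AF9 fusion. Because MLL1 was not mapped in the flox cells, loss of MLL1 under 4OHT was not checked here, and cell line and experiment cannot be told apart when MAF9 lists are set beside flox lists.

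H3K4me2 marks promoters and enhancers that are open or poised for use. MLL1 is one of the SET domain methyltransferases that methylate H3K4, and WDR5 is an adaptor subunit that these enzymes share and that also serves in other chromatin complexes. MM-401 occupies the pocket of WDR5 that binds MLL1, and Cre removes part of the floxed gene. Constant H3K4me2 without WDR5 is therefore a set of sites where the mark was called and the shared adaptor was not.

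The rule removed most peaks by width and by WDR5. Of the DMSO H3K4me2 peaks, 102640 were autosomal and 47266 of those were in the width range. An MM-401 peak overlapped 45757 of them, an EtOH peak 43412 of the rest and a 4OHT peak 42281, the constant peaks. Removing those with DMSO WDR5 left 32869, with MM-401 WDR5 28156, with EtOH WDR5 23324 and with 4OHT WDR5 20030, which is 47.4% of the constant peaks. The other 22251 constant peaks overlapped WDR5 in 1 list (9670 peaks), 2 lists (6426), 3 lists (3976) or all 4 lists (2179) and serve as the comparison below. The lists held 14481 WDR5 peaks in DMSO, 17273 in MM-401, 34587 in EtOH and 41054 in 4OHT, all as bare positions. Depth was thus unknown, and absence from a list means only that no peak was called. Against the 2 MAF9 WDR5 lists alone 28156 constant peaks were free of WDR5, and against the 2 flox lists alone 24825.

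Peaks were dense at the lower width limit and sparse at the upper one. At the lower limit, 484 members were exactly 500 bp wide, and 517 peaks that met every other part of the rule were 475 bp wide. At the upper limit, 2 members were 4975 bp wide and 6 otherwise eligible peaks were 5000 bp wide. A WDR5 peak of some list touched 279 members without sharing a base or, counting gaps of up to 25 bp, lay beside 539. Conversely, 318 constant peaks were left out because they shared at most 25 bp with WDR5.

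WDR5-free constant peaks were mostly narrow. In DMSO, 8673 (43.3%) were under 1000 bp, 8818 (44.0%) were from 1000 to under 2000 bp, 1918 (9.58%) from 2000 to under 3000 bp and 621 (3.10%) from 3000 to under 5000 bp. The share of constant peaks that were free of WDR5 fell from 69.9% (95% Wilson interval 69.1 to 70.7%) in the narrowest of these classes to 48.2% (47.5 to 49.0%), 25.7% (24.7 to 26.7%) and 15.1% (14.0 to 16.2%) in the widest. A wider peak offers more bases for an overlap, so the width ratios, MLL1 shares and distances to DMSO WDR5 and to broad domains were also compared within these 4 width classes. All intervals cover counting over peaks and treat neighbouring peaks as independent, and with 1 library per condition no test between conditions was possible.

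To ask how far the mark itself extended in each condition, the widths of all H3K4me2 peaks overlapping a member were summed in each list. The median summed width was 1075 bp in DMSO and 1125 bp under MM-401, compared with 1250 bp in EtOH and 1125 bp after 4OHT. The quartiles overlapped broadly, running from 775 to 1525 bp in DMSO, 725 to 1725 bp under MM-401, 725 to 2250 bp in EtOH and 650 to 1875 bp after 4OHT. Single values ran far wider: the rule held DMSO between 500 and 4975 bp, whereas the summed width reached 26900 bp under MM-401, 45650 bp in EtOH and 27125 bp after 4OHT and was as low as 75 bp in each of these 3 lists. The EtOH list therefore stood apart by its wide tail, in all 4 width classes.

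**Figure D1:**
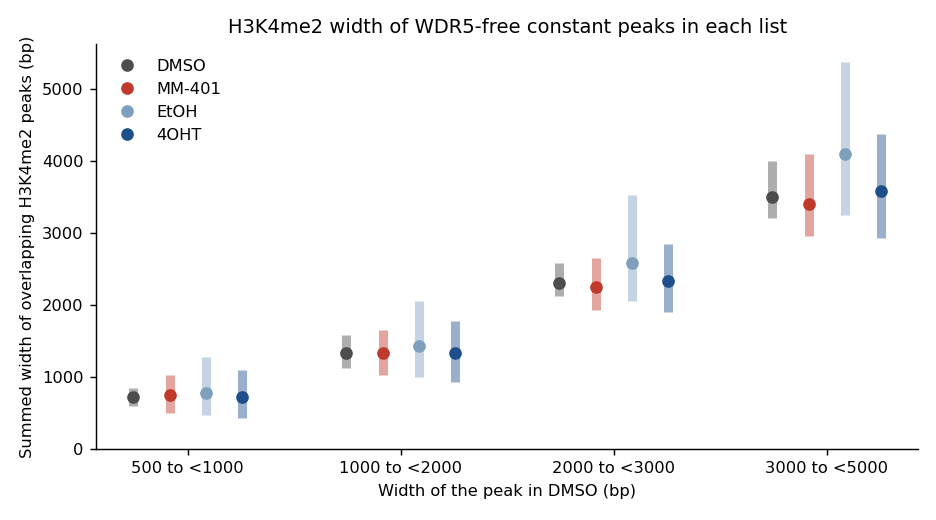
Median (points) and interquartile range (bars) of the summed width in bp of H3K4me2 peaks overlapping WDR5-free constant peaks, by list and by the peak's width in DMSO. In the widest class the EtOH median was 4100 bp against 3500 bp in DMSO, and the EtOH bars reach highest in every class.

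Peak by peak, the width changed little at the median under MM-401. The median log2 ratio of MM-401 over DMSO width was -0.044 (95% order-statistic interval -0.051 to -0.038), or 0.970-fold, while constant peaks with WDR5 had 0.070 (0.066 to 0.076), or 1.05-fold. By width class the WDR5-free medians were 0 (-0.040 to 0), -0.057 (-0.063 to -0.046), -0.059 (-0.072 to -0.047) and -0.048 (-0.075 to -0.030) from narrowest to widest, and those of WDR5-bearing peaks were 0.31 (0.28 to 0.34), 0.11 (0.10 to 0.12), 0.017 (0.015 to 0.028) and 0 (0 to 0.009). The intervals of the 2 sets were apart in every class, with the WDR5-free peaks the lower. The classes were cut by DMSO width, the denominator of this ratio, so a trend across classes is not a measure of MM-401. For EtOH over DMSO the WDR5-bearing medians also fell with width, from 0.76 below 1000 bp to 0.26 in the widest class, and the WDR5-free ones were 0.085 and 0.13 there. The WDR5-free median was 0.022 (0 to 0.029) when at least 50% of the peak had to be covered in each H3K4me2 list. That setting leaves out peaks with little cover under MM-401, which favours a higher ratio, so it cannot show by itself that the sign is unstable.

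The small median hid changes in both directions. Under MM-401, 3149 WDR5-free constant peaks (15.7%) were narrower by 1.5-fold or more, against 8.89% of all constant peaks, and 2935 (14.7%) were wider by 1.5-fold or more, against 17.8%. Among WDR5-bearing constant peaks these shares were 2.73% and 20.6%. Of the 3757 constant peaks that were narrower by 1.5-fold or more, 3149 were thus WDR5-free. Counts at 1.5-fold, here and below, are over all widths, and WDR5-free peaks were the narrower set in DMSO (median 1075 against 1750 bp). Narrow members passed such a limit more easily, with a first quartile of -0.47 below 1000 bp and -0.21 from 3000 to under 5000 bp.

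Under 4OHT both sets were narrower at the median. The log2 ratio of 4OHT over EtOH width was -0.13 (-0.13 to -0.12) in WDR5-free peaks, or 0.917-fold, and -0.16 (-0.17 to -0.16) in WDR5-bearing peaks, or 0.892-fold. By width class the WDR5-free medians lay between -0.12 and -0.15. At 1.5-fold, 4497 WDR5-free peaks (22.5%) were narrower, against 22% of all constant peaks, a share near this background. The 2234 that were wider (11.2%) exceeded the 7.12% of all constant peaks, and among WDR5-bearing peaks 3.48% were wider. Neither width in this ratio was bounded by the rule. Counting only the DMSO bases covered by each list, the WDR5-free median was 0 (0 to 0). This count is capped at the DMSO width and leaves out any change beyond the DMSO edges, so it cannot show whether those edges moved.

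The EtOH list against the DMSO list compares 2 solvent controls of different cells. Here the WDR5-free median was 0.081 (0.070 to 0.093), or 1.06-fold, and the WDR5-bearing median 0.39 (0.37 to 0.40), or 1.31-fold. Narrower by 1.5-fold or more in EtOH were 3823 WDR5-free peaks (19.1%, against 11.2% of all constant peaks), and wider were 5186 (25.9%, against 33.7%). The 2 solvent lists therefore differed by 1.5-fold at more WDR5-free peaks than DMSO and MM-401 did.

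**Figure D2:**
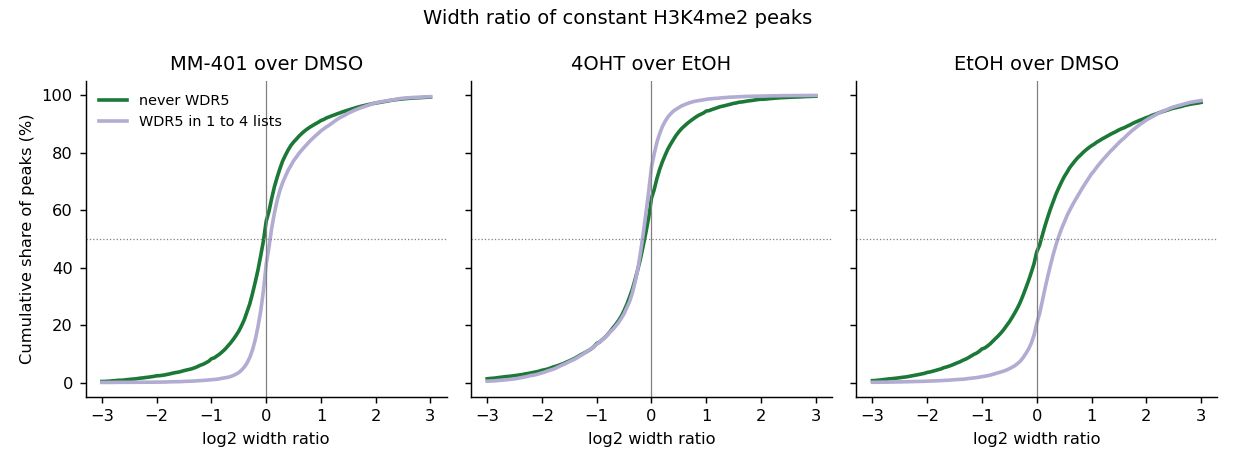
Cumulative share of constant H3K4me2 peaks (%) against the log2 ratio of their summed widths, for WDR5-free peaks (green) and peaks with WDR5 in 1 to 4 lists (purple); the dotted line marks the median. The WDR5-free curve lies above the other at negative ratios for MM-401 over DMSO and EtOH over DMSO, and has the longer upper tail for 4OHT over EtOH.

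Some regions were narrower under both treatments. Of the 3149 peaks narrower under MM-401, 1119 (35.5%, 33.9 to 37.2%) were also narrower under 4OHT, which is 24.9% of the 4497 narrower under 4OHT. Narrower under both were 5.59% of WDR5-free peaks, against 3.11% of all constant peaks. The share narrower under 4OHT was 18.9% (18.2 to 19.5%) of the 13946 peaks within 1.5-fold under MM-401 and 25.5% (23.9 to 27.1%) of the 2935 peaks wider under MM-401. The share wider under 4OHT was 15.6% (14.4 to 16.9%) of the peaks narrower under MM-401 and 13.1% (11.9 to 14.4%) of those wider, against 9.74% (9.26 to 10.2%) of those within 1.5-fold. Peaks past 1.5-fold in either direction under MM-401 were thus more often past it under 4OHT, also in either direction. The 2 ratios share no library, but these shares were not split by width and both ratios spread more among narrow peaks. Below 1000 bp the quartiles were -0.47 and 0.43 for MM-401 over DMSO and -0.66 and 0.31 for 4OHT over EtOH. From 3000 to under 5000 bp they were -0.21 and 0.080, and -0.39 and -0.011. The part of width in the joint shares was not tested.

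The 3 lowest MM-401 over DMSO ratios belonged to peaks that were only 75 bp wide under MM-401, the lowest value among members. The region chr5:77700626-77702425 (mm9, as are all positions here) was 1800 bp wide in DMSO, 75 bp under MM-401, 625 bp in EtOH and 175 bp after 4OHT. The region chr3:104448051-104449475 was 1425 bp in DMSO and 75 bp under MM-401 but 2000 bp in EtOH and 1275 bp after 4OHT. The region chr17:27738926-27740250 was 1325, 75, 1000 and 625 bp wide in the same order. None of the 3 held MLL1, and in all 3 the 4OHT width was below the EtOH width.

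The 3 highest ratios belonged to small DMSO peaks beside a broad domain, and in each an overlapping MM-401 peak also overlapped another DMSO peak. The region chr5:108164126-108164775 was 650 bp wide in DMSO, 25 bp from a DMSO peak of 5000 bp or more, and its overlapping peaks summed to 19625 bp under MM-401, 20800 bp in EtOH and 19700 bp after 4OHT. The region chr7:142794876-142795500 was 625 bp wide in DMSO and 350 bp from a broad domain, with 18375 bp under MM-401, 775 bp in EtOH and 16150 bp after 4OHT. The region chr15:74764626-74765400, also 350 bp from a broad domain, was 775 bp wide in DMSO, with 17550 bp under MM-401, 17875 bp in EtOH and 1325 bp after 4OHT. The flox lists were wide in both conditions only at the first of the 3.

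Splitting and joining of peaks were common among all members. A member was divided among 2 or more partner peaks in 21.8% of cases for MM-401, 25.1% for EtOH and 25% for 4OHT, against 20.4%, 20.6% and 22.5% of all constant peaks. Splits rose with width, and in each width class members were split more often than WDR5-bearing peaks. Below 1000 bp the shares were 16.4%, 20.8% and 18.9% against 11.1%, 12.8% and 13.6%. From 3000 to under 5000 bp they were 49.9%, 43.6% and 50.9% against 35.0%, 24.5% and 31.7%. Its partner also overlapped another DMSO peak in 23.5%, 32.6% and 25.6%, fewer than the 29.0%, 43.0% and 31.4% of all constant peaks. Of the DMSO bases, the median share covered was 87.8% under MM-401, 90% in EtOH and 86.5% after 4OHT. Under 50% of the peak was covered in 9.97%, 13.4% and 15.5% of members, against 1.21%, 2.43% and 2.93% of WDR5-bearing constant peaks. The WDR5-free peaks were therefore the less completely covered set in all 3 lists, including EtOH.

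In 6041 members (30.2%) each list held exactly 1 partner that touched no other DMSO peak, so widths could be compared without splits or joins. Their median widths were 1025 bp in DMSO, 975 bp under MM-401, 1000 bp in EtOH and 950 bp after 4OHT. The median log2 ratio in this subset was -0.084 (-0.094 to -0.074) for MM-401 over DMSO, -0.097 (-0.11 to -0.087) for 4OHT over EtOH and -0.031 (-0.043 to 0) for EtOH over DMSO. Both treated lists were below their solvent here, and the intervals of the 2 treatments overlapped. Leaving out joined partners removes partners that reach past the member, which favours lower ratios over DMSO.

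The rule asked only that the DMSO peak hold no WDR5, and a wider partner could still reach one. A partner peak overlapped WDR5 of its own condition in 803 members (4.01%) under MM-401, 2088 (10.4%) in EtOH and 1426 (7.12%) after 4OHT, and in 3010 members (15.0%) for at least 1 of the 3. Such partners were wide, with a median summed width of 3425 bp under MM-401, 4675 bp in EtOH and 3725 bp after 4OHT. In the 17020 members without one, the median ratios were -0.081 (-0.089 to -0.074) for MM-401 over DMSO, -0.10 (-0.11 to -0.096) for 4OHT over EtOH and -0.021 (-0.032 to 0) for EtOH over DMSO. This subset leaves out wide partners, while DMSO widths were not filtered in this way, which favours lower ratios over DMSO.

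MLL1 played no part in the rule and was found at few of these peaks. In DMSO, 778 members (3.88%, 3.63 to 4.16%) overlapped an MLL1 peak, against 10.6% (10.2 to 11.0%) of WDR5-bearing peaks and 7.42% of all constant peaks. In the MM-401 MLL1 list, 1997 members (9.97%, 9.56 to 10.4%) overlapped one, against 24.1% (23.5 to 24.6%) and 17.4%. The DMSO MLL1 list came from another peak caller than the other 9 lists and held 8525 peaks against 27345, so the 2 shares are not a measure of change under MM-401.

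The lower share of MLL1 was present in every width class. In DMSO it was 1.51%, 4.60%, 8.50% and 12.6% of WDR5-free peaks from narrowest to widest, and 2.33%, 6.95%, 14.6% and 23.1% of WDR5-bearing peaks, with intervals apart in each class. The narrowest class came closest, with 1.27 to 1.79% against 1.89 to 2.86%. Under MM-401 the shares were 4.16%, 11.1%, 23.1% and 34.1% against 6.90%, 17.2%, 31.9% and 48.6%. Peaks with WDR5 in a single list were nearest to the WDR5-free peaks, and in DMSO below 1000 bp their share of 1.78% (1.30 to 2.42%) did not differ from 1.51% (1.27 to 1.79%) beyond the intervals. Per length of H3K4me2, there were 32.1 MLL1 overlaps per Mb of WDR5-free peak in DMSO and 60 per Mb of WDR5-bearing peak, and 87.1 against 152 under MM-401.

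**Figure D3:**
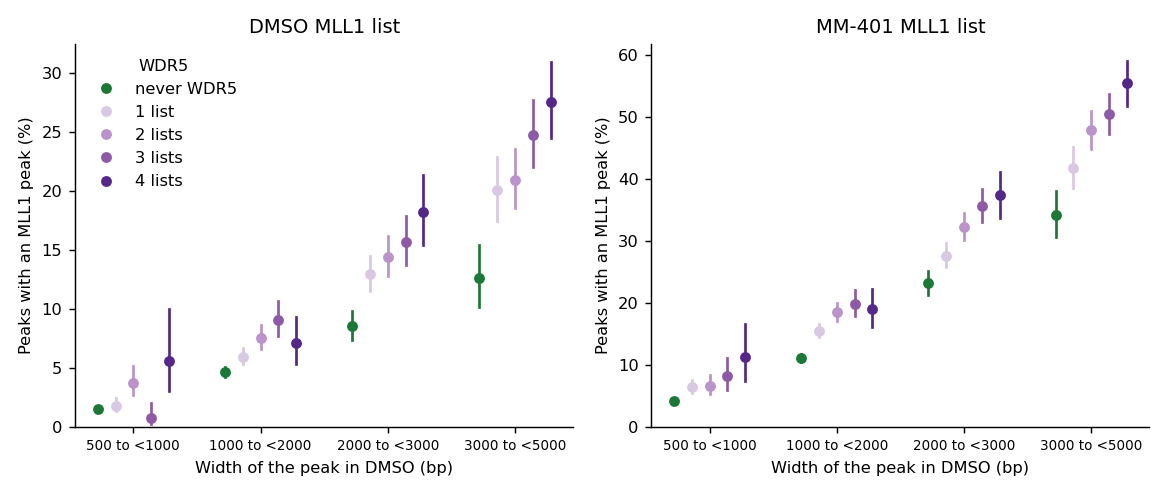
Share of constant H3K4me2 peaks (%) with an MLL1 peak of the DMSO list (left) or the MM-401 list (right; the vertical scales differ), by DMSO width and by the number of WDR5 lists in which the peak was overlapped; bars are 95% Wilson intervals. WDR5-free peaks (green) are lowest in each class except below 1000 bp in DMSO, where peaks with WDR5 in 3 lists had 0.694% on 3 of 432 peaks.

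Where MLL1 was present, it lay toward the middle of the H3K4me2 peak. Of the MLL1 centres inside a member, 68.4% in DMSO and 65.4% under MM-401 fell in the central 50% of its length. A second MLL1 peak was found in 29 members in DMSO and 174 under MM-401. Neither position nor second peaks were counted in other constant peaks, so they are not shown to be particular to members. Members with MLL1 were wide: the median was 1600 bp for those with DMSO MLL1 against 1050 bp without, and 1600 bp against 1050 bp for MM-401 MLL1.

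Both MLL1 lists marked 151 members (0.754%), whose median width was 2150 bp, against 2.48% of all constant peaks and 4.04% of WDR5-bearing ones. Of the 778 members with DMSO MLL1, 19.4% (16.8 to 22.3%) also had MM-401 MLL1, against 9.59% (9.18 to 10.0%) of the others. By width class the shares were 16.0% against 10.9% from 1000 to under 2000 bp, with intervals apart. They were 3.05% against 4.18% below 1000 bp, 28.8% against 22.6% from 2000 to under 3000 bp and 44.9% (34.3 to 55.9%) against 32.6% (28.8 to 36.6%) above, with overlapping intervals in these 3 classes. At the level of MLL1 peaks, 46 DMSO MLL1 peaks in members overlapped an MM-401 MLL1 peak, which was not counted for other constant peaks.

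The 3 widest members with MLL1 in both lists had summed widths between 3900 and 5800 bp in the 4 lists. The region chr7:16968101-16973050 was 4950 bp wide in DMSO, 5750 bp under MM-401, 5800 bp in EtOH and 5750 bp after 4OHT, and its nearest DMSO WDR5 peak was 75 bp away. The region chr5:66477501-66482275 was 4775, 3900, 4925 and 4425 bp wide in the same order and lay 10775 bp from DMSO WDR5. The region chr19:6296001-6300700 was 4700, 4475, 4575 and 5125 bp wide and lay 18850 bp from DMSO WDR5. The direction of change differed among the 3, since the 4OHT width was above the EtOH width only in the last and the MM-401 width above the DMSO width only in the first.

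The MM-401 over DMSO ratio was slightly higher in members with MLL1 than in those without, but not in every width class. For MM-401 MLL1 the median MM-401 over DMSO ratio was 0 (0 to 0.023) with MLL1 and -0.052 (-0.059 to -0.046) without, and from 1000 to under 2000 bp it was 0.020 (0 to 0.036) against -0.064 (-0.072 to -0.057), while above 3000 bp the intervals overlapped. For DMSO MLL1 it was -0.005 (-0.037 to 0.017) against -0.047 (-0.052 to -0.040) over all widths, with overlapping intervals in each width class. For 4OHT over EtOH and MM-401 MLL1, the median was -0.15 (-0.17 to -0.14) with and -0.12 (-0.13 to -0.12) without MLL1 over all widths. From 1000 to under 2000 bp it was -0.17 (-0.20 to -0.15) against -0.11 (-0.12 to -0.10). In the other width classes the intervals overlapped: -0.11 against -0.13 below 1000 bp, -0.14 against -0.13 from 2000 to under 3000 bp and -0.16 against -0.15 above. For DMSO MLL1 the 4OHT over EtOH medians were -0.14 (-0.17 to -0.11) with and -0.13 (-0.13 to -0.12) without MLL1, with overlapping intervals. Lower widths under 4OHT were also measured at WDR5-free peaks where no MLL1 was called in MAF9 cells. MLL1 was not mapped in the flox cells, so these values do not show whether MLL1 was present there.

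The distance to the nearest WDR5 peak followed the lengths of the WDR5 lists. It was 22338 bp at the median to DMSO WDR5 (21775 to 22950 bp), 19350 bp to MM-401 WDR5, 10488 bp to EtOH WDR5 and 8500 bp to 4OHT WDR5. To the nearest peak of any of the 4 lists it was 4100 bp, with quartiles of 1350 and 10475 bp, and 4198 members (21.0%) had one at 1000 bp or less. WDR5-bearing peaks were closer to the next WDR5 peak outside themselves, at 19275 bp for DMSO (18800 to 19775 bp) and 2100 bp for any list, which was not split by width. Within width classes this difference for DMSO WDR5 held below 2000 bp (from 1000 to under 2000 bp 23650 against 20075 bp) and was absent above, with 19338 against 19375 bp from 2000 to under 3000 bp and 16325 against 16625 bp in the widest class. The nearest DMSO WDR5 peak lay in another DMSO H3K4me2 peak for 88.9% of members and in a broad domain for 8.96%. These shares were not computed for other constant peaks or for all DMSO WDR5 peaks, so they have no background here.

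**Figure D4:**
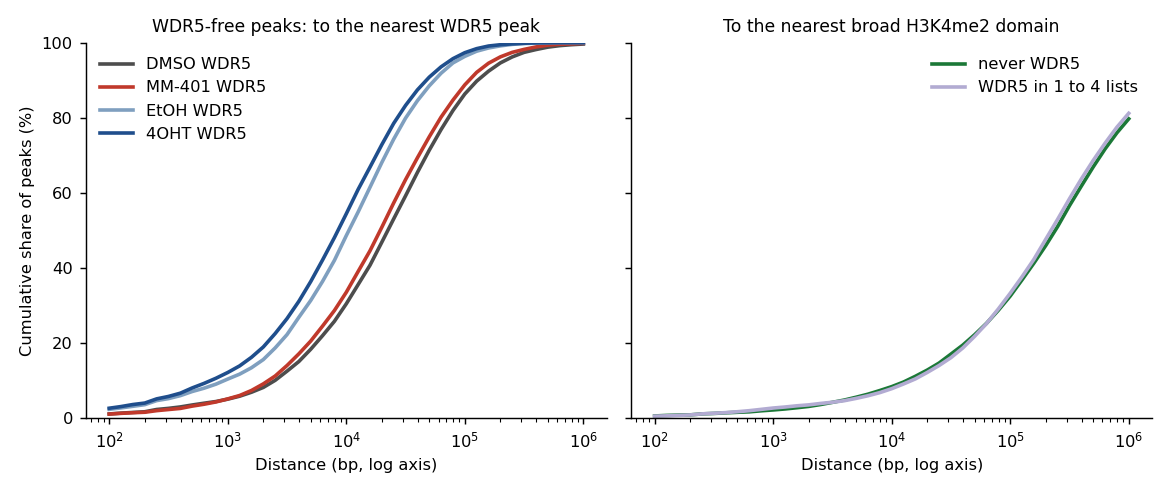
Cumulative share of peaks (%) by distance in bp on a log axis: left, WDR5-free constant peaks to the nearest WDR5 peak of each list; right, WDR5-free and WDR5-bearing constant peaks to the nearest DMSO H3K4me2 peak of 5000 bp or more. The flox lists, which are longer, give the shorter WDR5 distances, and the curves on the right nearly coincide with medians of 239475 and 220225 bp.

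Some members bordered WDR5 directly. The widest members touching a DMSO WDR5 peak were chr8:36024726-36028275, with 3550, 3475, 4700 and 3150 bp in DMSO, MM-401, EtOH and 4OHT, and chr9:72961401-72964225, with 2825, 3425, 4075 and 4375 bp. The next, chr5:130728401-130730875, was 2475 bp wide in DMSO, 2300 bp under MM-401, 6125 bp in EtOH and 2325 bp after 4OHT and held 2 MM-401 MLL1 peaks. At the other extreme, chr13:22922401-22924350 lay 272175 bp or more from WDR5 of every list and was 1950, 2250, 1000 and 750 bp wide. The region chr1:19195751-19196475 lay 269850 bp or more away, with 725, 800, 350 and 150 bp, and chr2:105238751-105239775 at least 242350 bp away, with 1025, 1075, 1150 and 1225 bp. None of the 3 most distant regions held MLL1.

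Widths differed between lists according to distance from WDR5. Under 1000 bp from any WDR5 peak, 4140 members had median log2 ratios of 0.68 (0.63 to 0.72) for EtOH over DMSO, 0.10 (0.084 to 0.13) for MM-401 over DMSO and -0.23 (-0.25 to -0.21) for 4OHT over EtOH. From 10000 to under 50000 bp, 4792 members had -0.12 (-0.14 to -0.097), -0.072 (-0.082 to -0.060) and -0.075 (-0.090 to -0.064). At 50000 bp or more, 468 members had -0.29 (-0.37 to -0.22), 0.037 (0 to 0.069) and -0.063 (-0.12 to -0.027). The EtOH over DMSO ratio spanned the widest range and fell at every step, and 4OHT over EtOH stayed below 0 at every distance. The EtOH list is the numerator of the first and the denominator of the second, so their opposite trends are not independent. The DMSO widths were similar across these bands, with medians from 1025 to 1125 bp.

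**Figure D5:**
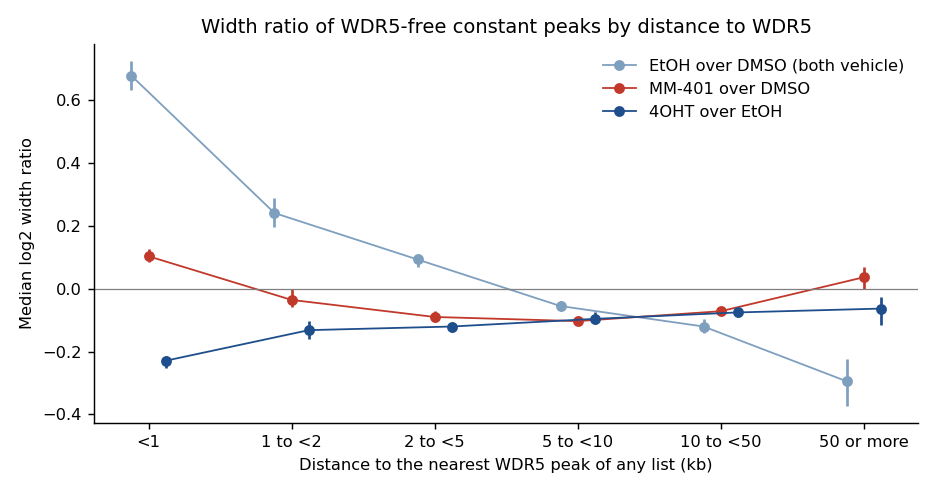
Median log2 width ratio of WDR5-free constant peaks, with 95% order-statistic intervals, by distance in kb to the nearest WDR5 peak of any list, for the 2 treatments and for the 2 solvent controls. EtOH over DMSO falls from 0.68 to -0.29 across the bands, whereas 4OHT over EtOH rises from -0.23 to -0.063. Both ratios use the EtOH list, on opposite sides, so the 2 trends are not independent.

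Partners reaching WDR5 were concentrated in the same nearest band. A partner must span the gap between the member and WDR5 to reach it, so a fall with distance is built into this count. Under 1000 bp from any WDR5 peak, the EtOH partner overlapped EtOH WDR5 in 36.0% of members, the 4OHT partner 4OHT WDR5 in 24.6% and the MM-401 partner MM-401 WDR5 in 14.6%, and from 5000 to under 10000 bp these shares were 0.404%, 0.215% and 0.0808%. MLL1 was also more frequent there: 13.9% (12.9 to 15.0%) of members in this band had MM-401 MLL1, against 8.55 to 9.19% in the other bands. For DMSO MLL1 it was 4.90% (4.29 to 5.60%) there against 3.37 to 3.96% elsewhere, and the interval overlapped that of some other bands.

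Broad H3K4me2 domains, the widest stretches of the mark, were taken as the 1610 autosomal DMSO peaks of 5000 bp or more, with a median width of 6400 bp. Of these, 1471 (91.4%) overlapped WDR5 of at least 1 list. The median distance from a WDR5-free constant peak to a broad domain was 239475 bp (232400 to 246750 bp), against 220225 bp (213600 to 226650 bp) for WDR5-bearing peaks, but the intervals overlapped within each of the 4 width classes. Within 10000 bp lay 1678 members (8.38%), compared with 7.84% of WDR5-bearing peaks.

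The wide members were an exception. Of those from 2000 to under 3000 bp, 12.6% (11.2 to 14.1%) lay within 10000 bp of a broad domain, against 7.95% (7.27 to 8.69%) of WDR5-bearing peaks of the same width, and from 3000 to under 5000 bp 19.0% (16.1 to 22.3%) against 11.4% (10.4 to 12.5%). The widest member of all, chr6:115953226-115958200, was such a case at 5800 bp from a broad domain: it measured 4975 bp in DMSO and 4875 bp under MM-401, each as 1 peak, but 1400 bp in EtOH and 925 bp after 4OHT, where 6 and 5 small peaks overlapped it. The equally wide chr10:88804001-88808975 lay 922775 bp from a broad domain, held DMSO MLL1 and measured 4975, 5250, 4350 and 4550 bp.

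Members near broad domains also had the lower 4OHT over EtOH and the higher EtOH over DMSO width ratios. Both ratios use the EtOH list, on opposite sides, so these are not 2 independent results. Within 10000 bp of one, the median ratio was -0.28 (-0.32 to -0.23) for 4OHT over EtOH and 0.38 (0.33 to 0.43) for EtOH over DMSO, and at 500000 bp or more -0.091 (-0.10 to -0.077) and 0 (-0.031 to 0). For MM-401 over DMSO the medians were -0.11 (-0.14 to -0.074) and 0 (0 to 0). The EtOH partner was itself 5000 bp or wider for 26.2% of the near members and 3.69% of the far ones, and the part of this joining in the ratios was not tested. DMSO MLL1 was found at 3.04% (2.32 to 3.97%) of the near members and 3.83% (3.39 to 4.32%) of the far ones, which did not differ beyond the intervals, and MM-401 MLL1 at 11.0% (9.61 to 12.6%) of the near and 8.85% (8.19 to 9.55%) of the far members, with intervals apart.

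Most members had close H3K4me2 neighbours. The next DMSO H3K4me2 peak of any kind was 400 bp away at the median, and 59.1% of members had one within 1000 bp, against 275 bp and 71.0% for WDR5-bearing peaks, which were wider. The next WDR5-free constant peak was 10850 bp away at the median, and 33.5% had another within 5000 bp. By chromosome, WDR5-free peaks made up from 42.7% to 51.9% of constant peaks, with the lowest share on chromosome 1 (40.9 to 44.5%).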

How the data were processed

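ChIP-seq peak lists of 10 libraries were analysed, and the 4 input libraries were not used here. The submitters' processing notes name Bowtie and the mouse build mm9. For each library the authors deposited only the chromosome, start and end of its peaks, without score or read count, so depth and its precision are unknown. In 9 lists the peaks have HPEAK names and lie on a 25 bp grid, with both ends taken as part of the peak. The DMSO MLL1 list has neither feature. The study describes MACS for MLL1, and the starts of this list were taken as 0-based, with a possible error of 1 bp. Thresholds of the HPeak lists are not given in the sources used here. No mm9 annotation was used, so no gene is named and no sequence is shown.

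Positions were compared in Python 3.11.15 with numpy 2.4.6 and pandas 2.3.3, and figures were drawn with matplotlib 3.10.9. Overlap meant 1 shared bp, distance was the number of bases between edges, and width ratios used summed partner widths on the log2 scale. Shares carry 95% Wilson intervals and medians 95% order-statistic intervals. The code was tested on simulated lists and found the same members as bedtools 2.31.1. Regions named by position are the 3 widest members, the 3 lowest and the 3 highest MM-401 over DMSO ratios, the 3 widest with MLL1 in both lists, the 3 farthest from any WDR5 and the 3 widest of those nearest to DMSO WDR5. No test was run, since each condition had 1 library. The regions, rules and comparisons were chosen with earlier results of these data known, and 4 of the 13 alternatives were added after the values had been seen.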

Additional observations from a re-analysis of the deposited data

Results flagged for a closer look

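Constant H3K4me2 peaks with WDR5 in at least 1 list moved in opposite directions at the median when each treatment was set against its own solvent. Their log2 width ratio was 0.070 for MM-401 over DMSO and -0.16 for 4OHT over EtOH. The WDR5-free constant peaks had -0.044 and -0.13, both below 0. The EtOH list was itself wider than the DMSO list in WDR5-bearing peaks, at 0.39. Set against DMSO instead, the 4OHT median was 0.13 (0.12 to 0.13) in WDR5-bearing and -0.042 (-0.051 to -0.033) in WDR5-free peaks. Both then had the sign of the MM-401 over DMSO median of the same set, although 4OHT over DMSO also compares different cells. Whether the 2 treatments differ was not tested, since each condition had 1 library.

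Chromosome X lay outside the rule. There, 671 of 922 peaks that met the width and overlap parts of the rule were free of WDR5 in all 4 lists, or 72.8% (95% Wilson interval 69.8 to 75.6%), against 47.4% on autosomes. The share was above the autosomal one in each width class: 80.1% against 69.9% below 1000 bp, 72.4% against 48.2% from 1000 to under 2000 bp, 56.9% against 25.7% from 2000 to under 3000 bp and 48.6% against 15.1% above, where X had 37 peaks. The intervals were apart in all 4 classes.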

How the results depend on the processing

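Of 65 values under 13 alternatives, 20 stayed within the interval or, for the number of members, within 1.5 times of the reported value, 44 moved beyond it and 1 reversed. The median log2 MM-401 over DMSO ratio of -0.044 turned to 0.022 when at least 50% of the peak had to be covered in each list. It was 0 with the widest 50% of the other lists, 0 when only the 2 MAF9 or only the 2 flox WDR5 lists were avoided, -0.093 when members were drawn from the EtOH list, -0.093 with the widest single partner, -0.19 for the DMSO bases covered, -0.081 with no WDR5 within 2 kb, -0.055 from 1000 bp, -0.081 with no WDR5 in the partners and -0.084 with 1 partner in each list. Its direction thus rests on these choices, but some of them favour 1 direction by their design. The 50% cover setting leaves out peaks with little cover, and the widest 50% leaves out narrow partners. Asking for no WDR5 in the partners or for 1 partner in each list leaves out wide or joined partners, which favours a lower ratio. The DMSO bases covered cannot exceed the DMSO width, so that MM-401 over DMSO ratio cannot be above 0. The cause was not tested. The 4OHT over EtOH ratio of -0.13 stayed below 0 in every setting but one: 0 for the DMSO bases covered, -0.041 drawn from EtOH, -0.12 at 50% covered, -0.096 with no WDR5 within 2 kb, -0.14 with the widest single partner, -0.15 avoiding the MAF9 lists only, -0.10 with no WDR5 in the partners and -0.097 with 1 partner.

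The DMSO MLL1 share of 3.88% became 4.64% at 50% covered, 4.72% with the widest 50%, 5.70% from 1000 bp, 7.29% with MLL1 within 2 kb, 5.25% avoiding the MAF9 WDR5 lists only and 4.64% avoiding the flox lists only. The MM-401 MLL1 share of 9.97% became 12% at 50% covered and with the widest 50%, 9.32% drawn from EtOH, 9.02% with no WDR5 within 2 kb, 14.4% from 1000 bp, 19.5% with MLL1 within 2 kb, 12.9% and 11.6% avoiding the MAF9 or the flox lists only, and 9.16% with no WDR5 in the partners. The distance to DMSO WDR5 of 22338 bp became 28275 bp with no WDR5 within 2 kb, 4100 bp to any list, 20913 bp avoiding the MAF9 lists only and 25525 bp with no WDR5 in the partners. The distance to a broad domain of 239475 bp became 97525 bp drawn from EtOH, with broad domains also from EtOH, and 261500 bp with no WDR5 within 2 kb, 226500 bp from 1000 bp, 224575 and 251100 bp avoiding the MAF9 or the flox lists only and 253725 bp with no WDR5 in the partners. A lower limit of 1000 bp left 11357 members. The settings that avoid only some WDR5 lists, look into the partners or ask for 1 partner were chosen after seeing the data. No paired analysis was possible because each condition had 1 library.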
